A study of Homo sapiens with 8 samples.

Results

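Metallothioneins are small zinc- and copper-binding proteins, and the genes described here are 5 of them (MT2A, MT1E, MT1X, MT1F and MT1G) together with MTF1, the zinc-sensing transcription factor, and SLC30A1, the gene of the plasma membrane zinc exporter ZnT1. These 7 genes were taken by name from the 58735 genes of the deposited table. They were chosen by results of the same libraries, in which MT1E FPKM was higher without glucose and with either MAPKAPK2 shRNA. Their levels and fold changes are therefore given as a description with no p-value, and where the members past the threshold used for all genes are counted, nothing is read from the count in any comparison. Other genes of zinc, copper and metal-stress handling are given with their tests. Their lists were also chosen with earlier results of these data known, so the counts of list genes called are a description. The metallothionein family comprises 21 annotated genes and pseudogenes in the table.

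The RNA of HCT116, a cell line established from a human colorectal carcinoma, was sequenced in 8 libraries forming 4 groups of 2. One group expressed shRNA 2 (a short hairpin RNA) and another shRNA 1 against MAPKAPK2, which encodes the p38-activated stress kinase MK2; both were grown at 20 mM glucose, and the sources used here give no time. Another group expressed a control shRNA and was kept for 24 h at 0 mM glucose. Its counterpart, the control shRNA cells kept for 24 h at 20 mM glucose, served both the glucose and the shRNA comparisons. All 4 groups thus share the cell line and the presence of an shRNA, and every comparison against the 20 mM control uses the same 2 libraries. Nothing in the labels says that the libraries of a group are from separate cultures; p-values therefore measure the spread between these samples alone, which may be technical. Whether each shRNA line was 1 clone or a pool of cells is not given either, and differences between lines cannot be told apart from effects of the hairpins.

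Metallothioneins hold zinc in clusters of cysteine thiolates and so buffer its free level in the cell. When free zinc rises, MTF1 moves to the nucleus, binds short metal response elements (MREs) in promoters and raises transcription of metallothionein genes and of SLC30A1, whose product then pumps zinc out. Metallothionein genes also respond to cadmium, copper, oxidants and, for MT2A, glucocorticoids.

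Values are FPKM, fragments scaled to exon length and to a size per library, a unit that allows genes to be compared per length. The libraries held 14252316 to 19975449 reads in genes. The size used in the FPKM was not this total. Reads in genes were 1.045 and 1.053 times that size with shRNA 2 and 0.970 and 0.932 times with shRNA 1. At 0 mM they were 0.965 and 0.999 times, and in the 20 mM controls 0.967 and 0.980 times. Relative to scaling by reads in genes, the deposited FPKM are thus higher with shRNA 2 and lower in the other groups. Libraries of the same group had a Pearson's r of 0.962 to 0.970 across genes on the log2(FPKM + 1) scale. For libraries of different groups r was 0.925 to 0.970, so the ranges overlapped. The highest of these was between the second 20 mM control and the first 0 mM control. On the third principal component, which held 11.4% of the variance, the second shRNA 2 library, at 18.4, and the second 0 mM control, at 32.4, stood apart from the other libraries, at −16.7 to 0.964. MAPKAPK2 was at 0.982 and 0.800 FPKM with shRNA 2, at 2.77 and 2.54 FPKM with shRNA 1, at 17.9 and 18.9 FPKM in the 0 mM controls and at 16.4 and 16.2 FPKM in the 20 mM controls. It fell with shRNA 2 (log2 fold change −3.20, limma adjusted p = 5.26e-05) and with shRNA 1 (−2.24, limma adjusted p = 0.000201), and all 4 knockdown libraries lay below all 4 controls. Of 9 colorectal epithelial markers, 6 (among them EPCAM, KRT8 and CDH1) reached 1 FPKM in every library, while CDX1 was at 0 in all. The highest leukocyte marker value was 0.648 FPKM and the highest endothelial one 0.0590 FPKM; of 3 fibroblast markers 1 was above 1 FPKM throughout, COL1A1 at 3.84 to 6.72 FPKM.

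The metallothionein genes lie side by side on chromosome 16 of GRCh38. MT2A (ENSG00000125148) spans 56608199 to 56609497, MT1E (ENSG00000169715) 56625475 to 56627112, MT1F (ENSG00000198417) 56657694 to 56660698 and MT1X (ENSG00000187193) 56682424 to 56684196, all on the plus strand. MT1G (ENSG00000125144), on the minus strand, spans 56666731 to 56668065. MTF1 (ENSG00000188786, 37809567 to 37859620) and SLC30A1 (ENSG00000170385, 211571568 to 211578742) are on the minus strand of chromosome 1. The levels of family members are uncertain to the extent that near-identical transcripts share reads. Of the stretches of 50 bases in their annotated transcripts, 3.02% were shared with another gene for MT2A, 7.10% for MT1E, 18.3% for MT1X, 1.22% for MT1F and 16.5% for MT1G. For MTF1 the share was 0.891% and for SLC30A1 it was 0. In addition 18.1% of the exon bases of MT1X overlap AC026461.1 on the same strand, a gene at 0 FPKM in all 8 libraries.

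The promoters are shown because the MRE is the sequence through which MTF1 acts. Both forms of the MRE core, TGCACNC and TGCGCNC (N, any base), were searched on both strands of the 250 bases before each gene's start in RefSeq on GRCh38.p14; the forms differ at the fourth base and cannot match at the same place, and no other motif was searched. Capitals mark the matches; a match on the other strand reads GNGTGCA or GNGCGCA. The RefSeq starts can differ from the ends of the gene spans given above. The MT2A window lies inside its span, and the SLC30A1 window does not touch its own. Of 35116 promoters 24.8% hold at least 1 match, 6.48% at least 2, 1.58% at least 3 and 0.370% at least 4. MT2A (chr16:56608334-56608583, plus strand) is the most highly expressed member. MT1X (chr16:56682220-56682469, plus strand) is a lowly expressed member of the same cluster, and SLC30A1 (chr1:211579162-211579411, minus strand) is the other MTF1 target. MT1H (chr16:56669564-56669813, plus strand) is a neighbour with no reads, chosen for display after its values were seen.
MT2A: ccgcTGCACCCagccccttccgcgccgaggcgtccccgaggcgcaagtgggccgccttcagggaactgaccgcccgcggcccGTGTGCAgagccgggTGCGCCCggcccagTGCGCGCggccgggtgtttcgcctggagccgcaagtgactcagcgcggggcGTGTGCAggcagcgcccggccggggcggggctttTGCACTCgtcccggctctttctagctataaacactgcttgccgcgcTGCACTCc
MT1X: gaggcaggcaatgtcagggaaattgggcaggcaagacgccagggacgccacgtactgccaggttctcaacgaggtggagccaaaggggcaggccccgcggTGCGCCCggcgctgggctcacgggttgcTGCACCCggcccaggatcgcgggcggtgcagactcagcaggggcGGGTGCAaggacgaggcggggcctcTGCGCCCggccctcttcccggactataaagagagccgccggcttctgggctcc
SLC30A1: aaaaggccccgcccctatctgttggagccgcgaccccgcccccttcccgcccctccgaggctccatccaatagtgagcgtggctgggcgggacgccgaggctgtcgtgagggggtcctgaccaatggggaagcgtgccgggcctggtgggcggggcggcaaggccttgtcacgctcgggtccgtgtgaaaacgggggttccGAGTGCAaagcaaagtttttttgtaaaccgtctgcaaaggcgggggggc
MT1H: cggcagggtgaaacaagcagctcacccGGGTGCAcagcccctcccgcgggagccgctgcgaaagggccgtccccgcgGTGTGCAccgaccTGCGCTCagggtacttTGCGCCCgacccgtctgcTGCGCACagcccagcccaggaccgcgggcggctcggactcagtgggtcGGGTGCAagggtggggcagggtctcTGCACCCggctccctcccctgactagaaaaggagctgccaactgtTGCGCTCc

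The window of MT2A holds 7 matches, a number reached by 0.0313% of promoters, and that of MT1X holds 4. The window of SLC30A1 holds 1 match and that of MTF1 (chr1:37859593-37859842, minus strand) holds 0. MT1H, with 0 reads in every library, holds 8 matches, reached by 0.0171% of promoters, and MT1B, also with 0 reads, holds 3. MT1H was picked after its values were seen, so no relation between matches and level is drawn. A match describes letters in this window and says nothing of binding. MT1E, MT1F and MT1G were not searched.

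Metallothionein mRNA as a whole was most abundant with MAPKAPK2 shRNA 2. Summed over the 5 genes it was 1279 and 957 FPKM with shRNA 2, 513 and 396 FPKM with shRNA 1, 467 and 563 FPKM in the 0 mM controls and 249 and 315 FPKM in the 20 mM controls. The mean was 1118 ± 228 FPKM with shRNA 2, 455 ± 82.9 with shRNA 1, 515 ± 68.0 at 0 mM and 282 ± 47.1 in the 20 mM controls (SD, n = 2 each). Each of the other 3 groups lay above the 20 mM control without overlap, while the ranges of the shRNA 1 and 0 mM groups overlapped. The mean was 3.96 times the 20 mM control with shRNA 2, 1.61 times with shRNA 1 and 1.83 times at 0 mM. As a share of all FPKM the sum was 0.391% and 0.293% with shRNA 2, 0.160% and 0.136% with shRNA 1, 0.155% and 0.178% at 0 mM, and 0.0856% and 0.102% in the 20 mM controls. In bulk RNA, more cells expressing a gene and more RNA per cell cannot be told apart.

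**Figure D1:**
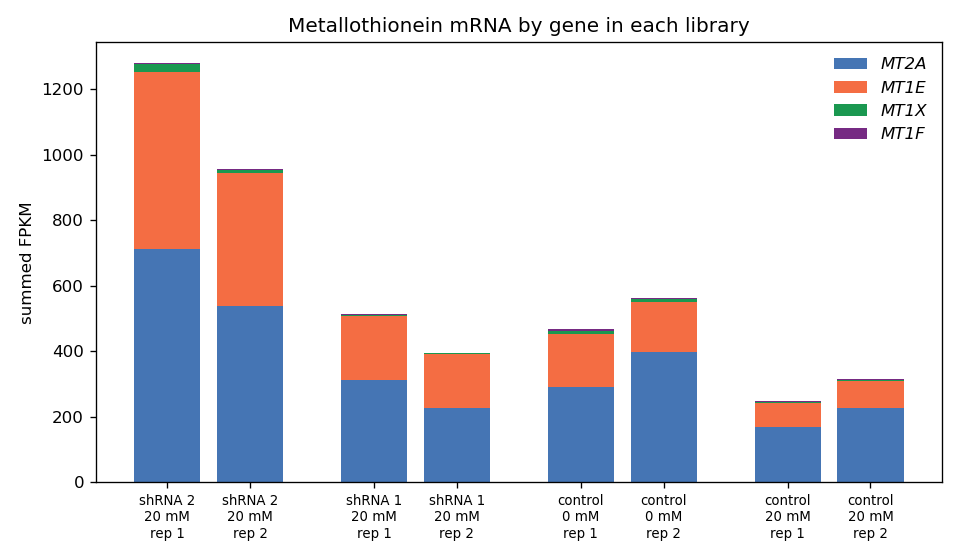
Summed FPKM of the metallothionein members in each of the 8 libraries, stacked by gene, with shRNA 2, shRNA 1, the 0 mM control and the 20 mM control from left to right; MT1G is at 0 and not visible. MT2A and MT1E make up nearly the whole bar, and both shRNA 2 bars (1279 and 957 FPKM) stand above all the others.

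The balance between the 2 leading genes also differed. MT2A was 1.32 and 1.34 times MT1E in FPKM with shRNA 2, 1.63 and 1.39 times with shRNA 1, 1.83 and 2.67 times at 0 mM, and 2.34 and 2.79 times in the 20 mM controls. With either shRNA the ratio lay below both 20 mM controls, and the 0 mM libraries overlapped them. MT1E made up 42.2% and 42.2% of the sum with shRNA 2, 37.6% and 41.4% with shRNA 1, 34.4% and 26.6% at 0 mM, and 29.3% and 25.8% in the 20 mM controls. Among all genes ranked by FPKM, MT2A stood at position 38 in both shRNA 2 libraries and at 154 and 112 in the 20 mM controls. MT1E stood at 48 and 51 with shRNA 2 and at 432 and 389 in the 20 mM controls.

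MT2A, the main metallothionein of most human tissues, was at 712 and 540 FPKM with shRNA 2, 314 and 228 FPKM with shRNA 1, 293 and 400 FPKM at 0 mM, and 171 and 227 FPKM in the 20 mM controls. The shRNA 2 libraries were the highest of the 8, and the 0 mM libraries both exceeded the 20 mM controls. With shRNA 1 the lower library was at the level of the higher 20 mM control, so these groups were separated by less than their spread. On the log2(FPKM + 1) scale, with 1 standard error (SE) of 0.25 for every comparison, MT2A differed from the 20 mM control by 1.65 with shRNA 2, by 0.44 with shRNA 1 and by 0.79 at 0 mM. Without the second shRNA 2 library, which stood apart, the shRNA 2 value was 1.85, and without the second 0 mM control the 0 mM value was 0.57.

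MT1E, an inducible gene of the MT1 cluster, was at 540 and 404 FPKM with shRNA 2, 193 and 164 FPKM with shRNA 1, 160 and 150 FPKM at 0 mM, and 72.9 and 81.4 FPKM in the 20 mM controls. No group overlapped another, and the order was shRNA 2, shRNA 1, 0 mM and 20 mM control, the gap between shRNA 1 and 0 mM being small beside the spread of the shRNA 1 libraries. The log2 fold changes against the 20 mM control were 2.58 with shRNA 2, 1.20 with shRNA 1 and 1.00 at 0 mM (SE 0.16 each). Counting error was small beside these differences. The 4 control libraries held 1282 to 3491 MT1E reads each. In the library with the fewest, the first 20 mM control, the exact 95% Poisson interval ran from 68.9 to 77.0 FPKM.

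MT1X, another MT1 isoform gene, was at 24.5 and 11.1 FPKM with shRNA 2, 5.09 and 3.84 FPKM with shRNA 1, 10.6 and 11.0 FPKM at 0 mM, and 3.54 and 5.10 FPKM in the 20 mM controls. The shRNA 1 libraries lay within the range of the 20 mM controls, the 0 mM libraries above it, and the shRNA 2 libraries above it but far from each other. The log2 fold changes were 1.74 with shRNA 2, 0.04 with shRNA 1 and 1.16 at 0 mM (SE 0.34 each). With shRNA 2 the value was 2.28 without the second shRNA 2 library and 1.20 without the first.

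MT1F, a weakly expressed MT1 gene, was at 2.96 and 1.91 FPKM with shRNA 2, 1.04 and 0.658 FPKM with shRNA 1, 3.17 and 2.54 FPKM at 0 mM, and 1.68 and 1.55 FPKM in the 20 mM controls. The shRNA 1 libraries were the lowest and the shRNA 2 and 0 mM libraries overlapped. These values rest on 19 to 124 reads per library. The log2 fold changes were 0.38 with shRNA 2, −0.51 with shRNA 1 and 0.56 at 0 mM (SE 0.20 each), and in limma voom on the reads recovered from the FPKM they were 0.58 with shRNA 2, −0.91 with shRNA 1 and 0.83 at 0 mM, since adding 1 to an FPKM near 1 shrinks a fold change.

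MT1G, which sits head to head with MT1H in the cluster, had 0 reads in all 8 libraries. A count of 0 allows up to 3 reads, which is 0.193 to 0.262 FPKM depending on the library, so no difference was detectable at this depth. Of the other 16 family genes and pseudogenes, 9 also had 0 reads in every library: MT1A, MT1B, MT1H, MT1HL1, MT1M, MT3, MT4, MT1IP and MT1P3. Another 6 had 1 to 18 reads over all libraries together and at most 2.03 FPKM in any one.

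The exception was MT2P1, a processed pseudogene on chromosome 4 (68376323 to 68376505, plus strand). It was at 40.97 and 16.97 FPKM with shRNA 2 (142 and 50 reads), 4.64 and 5.72 FPKM with shRNA 1 (16 and 16 reads), 14.0 and 16.3 FPKM at 0 mM (53 and 46 reads) and 4.25 and 8.60 FPKM in the 20 mM controls (13 and 28 reads). This was 1.48% to 5.76% of the FPKM of MT2A in the same library. Of the 50-base stretches of MT2P1, 15.7% occur in another gene's transcripts, among them those of MT2A and MT1E. Its reads may therefore belong in part to MT2A or MT1E. The sources used here do not say how multiply mapped reads were counted.

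**Figure D2:**
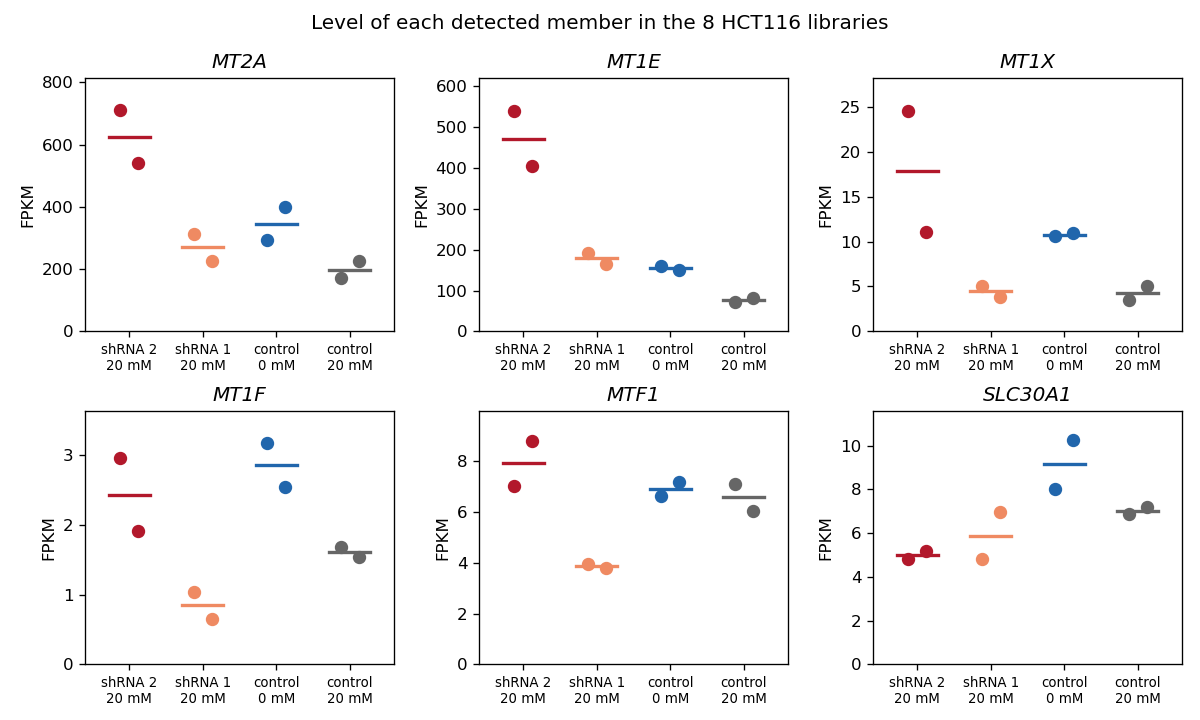
FPKM of the 6 members with reads, in 1 panel per gene with its own linear axis from 0; points are libraries, bars are the means of 2, and groups run from shRNA 2, shRNA 1 and the 0 mM control to the 20 mM control. MT2A, MT1E and MT1X peak with shRNA 2, MTF1 is lowest with shRNA 1 (3.95 and 3.78 FPKM), and SLC30A1 is highest at 0 mM (8.04 and 10.2 FPKM).

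MTF1, the zinc sensor and activator of these genes, was at 7.03 and 8.79 FPKM with shRNA 2, 3.95 and 3.78 FPKM with shRNA 1, 6.64 and 7.19 FPKM at 0 mM, and 7.09 and 6.04 FPKM in the 20 mM controls. The shRNA 1 libraries were below all the others, while the lower shRNA 2 library lay between the 20 mM controls, the other was the highest of the 8, and the 0 mM libraries overlapped the 20 mM controls. The log2 fold changes against the 20 mM control were 0.23 with shRNA 2, −0.63 with shRNA 1 and 0.07 at 0 mM (SE 0.13 each). In cells with shRNA 1, MTF1 mRNA averaged 58.9% of the 20 mM control, MT1F 52.7%, MT1X 103%, MT2A 136% and MT1E 231%.

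SLC30A1, the zinc exporter gene, was at 4.84 and 5.17 FPKM with shRNA 2, 4.81 and 6.96 FPKM with shRNA 1, 8.04 and 10.2 FPKM at 0 mM, and 6.86 and 7.21 FPKM in the 20 mM controls. The shRNA 2 libraries lay below the 20 mM controls, the shRNA 1 libraries overlapped them, and the 0 mM libraries lay above. The log2 fold changes were −0.42 with shRNA 2, −0.24 with shRNA 1 and 0.33 at 0 mM (SE 0.17 each). At 0 mM, SLC30A1 and all 4 detected metallothioneins lay above the 20 mM controls. With shRNA 2, SLC30A1 stood on the other side of its control from MT2A, MT1E and MT1X.

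Of the 7 members 6 passed the filter of at least 1 FPKM in at least 2 libraries, MT1G being the exception. At 0 mM against 20 mM glucose, limma called 0 of the 6 at an adjusted p under 0.05, as it did of all genes (0.0% of 16239, with 1421 genes or 8.75% at an unadjusted p under 0.05); limma voom on recovered reads called MT1E higher, where it called 0.154% of genes higher. All 5 members other than MTF1 lay above the controls without overlap, against 19.1% of all tested genes.

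With shRNA 2 against control shRNA at 20 mM, limma called MT2A, MT1E and MT1X higher (3 of 6, where 11.1% of genes were called higher) and 0 lower (7.73% of genes); the call of MT1X was lost without either 20 mM control and that of MT2A without the first. With shRNA 1 it called MT1E higher (9.35% of genes) and MTF1 lower (10.5% of genes), and the call of MTF1 was lost without any 1 of the 4 libraries compared.

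In shRNA 2 against shRNA 1, a comparison of 2 hairpins that leaves out the controls, limma called 5 of 6 members higher, all but SLC30A1, and 0 lower, where 13.0% of genes were called higher and 9.13% lower. The log2 fold changes were 1.21 for MT2A, 1.39 for MT1E, 1.69 for MT1X, 0.88 for MT1F, 0.87 for MTF1 and −0.18 for SLC30A1. With 1 library left out the value was 1.18 to 1.60 for MT1E and 0.72 to 1.01 for MTF1. The call of MT1F was lost without either shRNA 1 library or the first shRNA 2 library. That of MT1X was lost without either shRNA 1 library, and that of MT2A without the second shRNA 1 or the first shRNA 2 library. The members were chosen from these same libraries, so neither a call nor its survival counts as support. The median log2 fold change of the 6 members was 1.05, beside 0.03 for all tested genes. The medians against the 20 mM control, which all 3 comparisons share, were 1.01 with shRNA 2, −0.10 with shRNA 1 and 0.68 at 0 mM, beside 0.01, −0.01 and −0.01 for all tested genes.

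**Figure D3:**
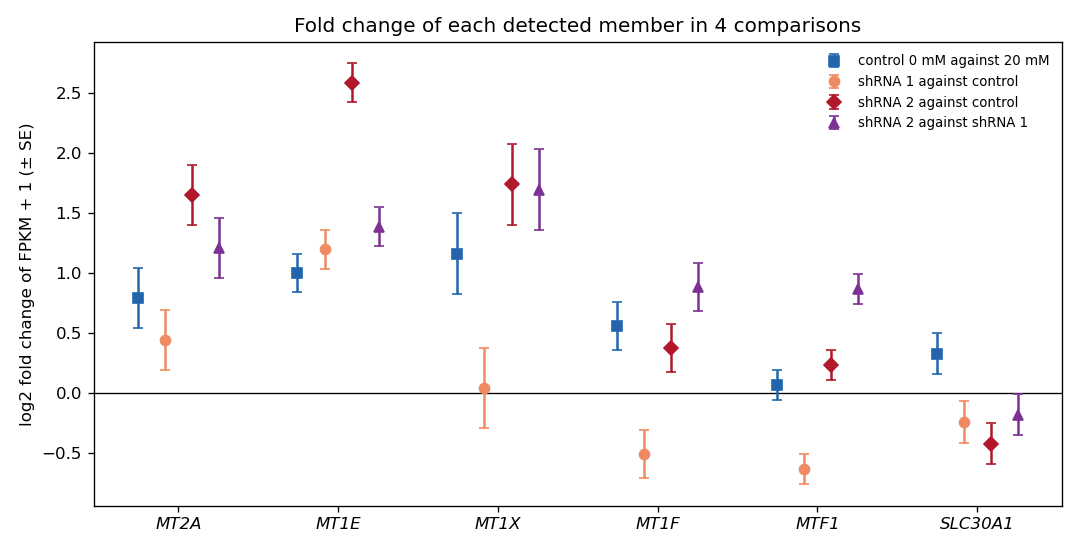
Log2 fold change of FPKM + 1 (vertical axis, bars ± 1 SE from the limma model) for the 6 tested members in 4 comparisons, marked by colour and shape. MT1E is above 0 in all 4 (1.00 at 0 mM, 1.20 with shRNA 1, 2.58 with shRNA 2 and 1.39 for shRNA 2 against shRNA 1), MT1F and MTF1 are below 0 with shRNA 1 alone, and SLC30A1 is above 0 at 0 mM alone.

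Among zinc transporters outside the member set, SLC39A7 fell with shRNA 1. Of a list of 25 zinc transporter and zinc sensing genes 17 were tested, and with shRNA 1 limma called 3 higher and 1 lower, where 9.35% of all tested genes were called higher and 10.5% lower. The 4 calls are 23.5% of the list, near the 19.8% of all genes called in either direction, and the median log2 fold change was 0.06, against −0.01 for all tested genes. SLC39A7, the ZIP7 transporter that releases zinc from the endoplasmic reticulum, was at 26.5 and 26.5 FPKM with shRNA 1 and at 66.5 and 66.4 FPKM in the 20 mM controls (log2 fold change −1.29, SE 0.14, limma adjusted p = 0.00218). The 2 groups lay far apart, and the call held without any 1 of the 8 libraries (adjusted p up to 0.0256). Of its exon bases 8.58% overlap RXRB on the opposite strand, a gene at 13.3 to 24.7 FPKM.

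SLC39A6, the plasma membrane zinc importer ZIP6, rose to a mean of 38.0 ± 2.22 FPKM with shRNA 1, against 24.7 ± 0.239 FPKM in the 20 mM controls (log2 fold change 0.60, limma adjusted p = 0.00821). SLC39A4, the intestinal zinc importer ZIP4, rose to 14.1 ± 1.53 FPKM, against 8.45 ± 0.396 FPKM (0.67, limma adjusted p = 0.0302), and SLC39A11 (ZIP11) to 8.15 ± 1.17 FPKM, against 5.27 ± 0.685 FPKM (0.54, limma adjusted p = 0.0252; SD, n = 2 each). These 3 calls were lost without either 20 mM control, that of SLC39A6 also without the second shRNA 1 library and the others without either. Those of SLC39A4 and SLC39A11 were also lost without the filter.

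With shRNA 2 against control, limma called 1 of the 17 genes, SLC30A9, a mitochondrial zinc carrier, which rose to 14.2 ± 0.802 FPKM, against 10.2 ± 0.691 FPKM in the 20 mM controls (log2 fold change 0.44, limma adjusted p = 0.0248; SD, n = 2 each). This is 5.88% of the list, below the 18.8% of all genes called in either direction. The call was lost in 5 of 8 fits with 1 library left out, and the list median was 0.02 beside 0.01 for all tested genes. At 0 mM 0 of 17 were called by limma and 0 by limma voom, and the median was −0.07 beside −0.01 for all tested genes.

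Between shRNA 2 and shRNA 1, 2 of the 17 genes were higher and 3 lower, or 29.4% of the list, where 13.0% of all genes were called higher and 9.13% lower (list median −0.18, against 0.03 for all tested genes). SLC39A7 was at 58.4 and 44.6 FPKM with shRNA 2, against 26.5 and 26.5 FPKM with shRNA 1 (log2 fold change 0.92, limma adjusted p = 0.00574). The call held without any 1 library. SLC39A8, the zinc and manganese importer ZIP8, was higher as well, at 6.90 ± 1.20 FPKM with shRNA 2 and 3.71 ± 0.717 FPKM with shRNA 1 (0.74, limma adjusted p = 0.0141; SD, n = 2 each). SLC39A6 (−0.49, limma adjusted p = 0.0148) and SLC39A4 (−0.65, limma adjusted p = 0.0300) were lower with shRNA 2. Except for SLC39A7, these calls were lost without the first shRNA 1 library, those of SLC39A6 and SLC39A4 also without the second, and that of SLC39A4 in 5 of 8 fits in all.

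**Figure D4:**
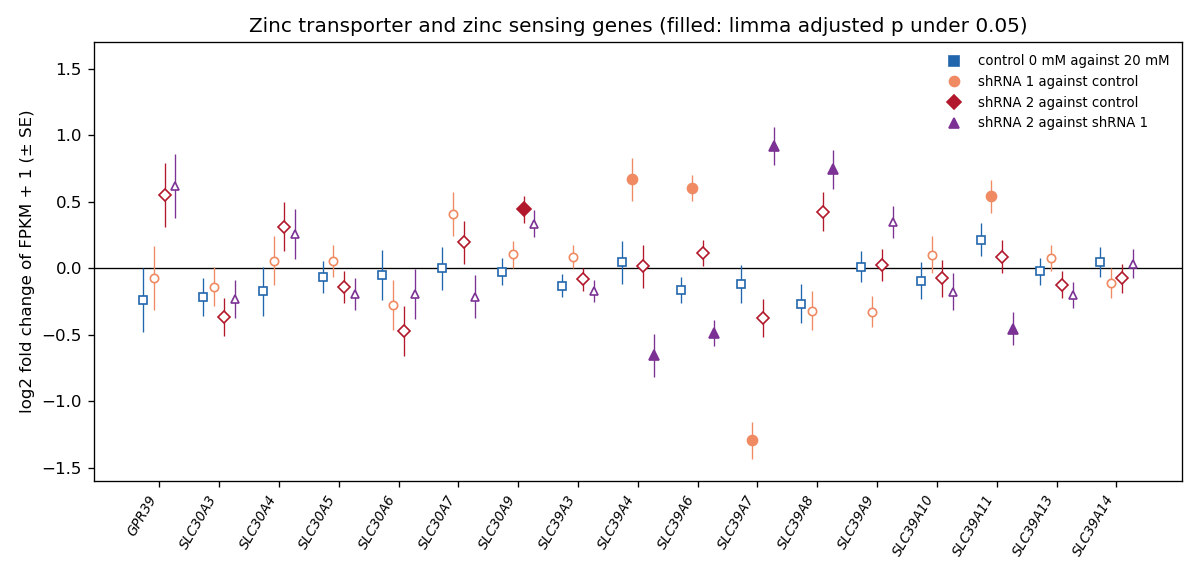
Log2 fold change of FPKM + 1 (± 1 SE) for the 17 tested zinc transporter and zinc sensing genes in 4 comparisons; filled symbols passed at a limma adjusted p under 0.05 over all 16239 genes. SLC39A7 shows the widest spread, at −1.29 with shRNA 1 and 0.92 for shRNA 2 against shRNA 1, and no symbol of the glucose comparison is filled.

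Copper handling genes were examined because metallothioneins also bind copper. Of 10 tested genes limma called 0 at 0 mM and 1 higher with either shRNA, a share near that of all genes called higher (11.1% with shRNA 2 and 9.35% with shRNA 1). These were the copper importer gene SLC31A1 with shRNA 1 (log2 fold change 0.45, limma adjusted p = 0.0407) and the copper pump gene ATP7B with shRNA 2 (0.55, limma adjusted p = 0.0459). The call of ATP7B held in 0 of 8 fits with 1 library left out. It was also lost without the filter and when the replicate number was fitted as a block. The call of SLC31A1 was lost without the filter and without any 1 of the 4 libraries compared. Between shRNA 2 and shRNA 1, SOD1, the copper and zinc superoxide dismutase gene, was at 131 ± 30.6 against 65.9 ± 2.51 FPKM (0.96, limma adjusted p = 0.00941; SD, n = 2 each), a call lost without either shRNA 1 library. COMMD1, a regulator of copper export, was at 4.97 ± 1.12 against 2.61 ± 0.398 FPKM (0.72, limma adjusted p = 0.0463). The call held in 3 of 8 such fits. COMMD1 shares 31.0% of its exon bases with RPSAP26, a pseudogene on the same strand that was at 0 FPKM in all libraries. The COMMD1 call was also lost with a pseudocount of 0.1, without the filter and under quantile normalization. The list medians were 0.07 with shRNA 2, 0.06 with shRNA 1, −0.09 at 0 mM and 0.03 between the shRNAs.

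Among other genes known to respond to metals or to be linked to MTF1, heme oxygenase and heat shock genes fell with either shRNA. Of 8 tested, with shRNA 2 against control limma called 1 higher and 3 lower, with shRNA 1 it called 0 higher and 4 lower, and at 0 mM 0, also by limma voom. Of all genes 11.1% were called higher and 7.73% lower with shRNA 2, and 9.35% higher and 10.5% lower with shRNA 1. HMOX1, heme oxygenase 1, was at 3.86 and 2.66 FPKM with shRNA 2, 7.53 and 6.58 FPKM with shRNA 1, 11.5 and 13.9 FPKM at 0 mM and 11.8 and 12.6 FPKM in the 20 mM controls. It fell with shRNA 2 (log2 fold change −1.65, SE 0.16, limma adjusted p = 0.00121) and with shRNA 1 (−0.72, limma adjusted p = 0.0236), and the groups with an shRNA against MAPKAPK2 lay below both control groups. The shRNA 1 call was lost without the filter and without any 1 of the 4 libraries compared, while the shRNA 2 call held in 8 of 8 fits.

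GCLC, the catalytic subunit of the enzyme that limits glutathione synthesis, rose to 14.8 and 15.6 FPKM with shRNA 2, against 8.93 and 8.38 FPKM in the 20 mM controls (log2 fold change 0.75, limma adjusted p = 0.00379). Its partner subunit gene GCLM fell with shRNA 1 to 4.23 ± 0.704 FPKM, against 7.36 ± 0.966 FPKM (−0.68, limma adjusted p = 0.0285; SD, n = 2 each). The heat shock genes HSPA1A and HSPA1B fell with shRNA 2 (−0.82 and −0.91, limma adjusted p = 0.00751 and 0.00206) and with shRNA 1 (−0.71 and −0.50, limma adjusted p = 0.0129 and 0.0175); they are near-identical copies whose reads may be split. The shRNA 1 calls of GCLM, HSPA1A and HSPA1B were lost in 4, 3 and 3 of 8 fits with 1 library left out, and the shRNA 2 call of HSPA1A without the first 20 mM control. The shRNA 1 call of GCLM was also lost without the filter. The list medians were −0.26 with shRNA 2, −0.56 with shRNA 1, −0.01 at 0 mM and −0.02 between the shRNAs.

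Glucocorticoid-inducible genes were examined because MT2A also answers to that hormone. Of 7 tested, with shRNA 2 against control limma called 4 higher and 0 lower, with shRNA 1 it called 1 higher and 3 lower, and at 0 mM 0, also by limma voom. Among all genes the shares higher and lower were 11.1% and 7.73% with shRNA 2, and 9.35% and 10.5% with shRNA 1. KLF9, a transcription factor gene induced by glucocorticoids, was at 4.65 and 5.19 FPKM with shRNA 2, 3.05 and 2.81 FPKM with shRNA 1, 0.588 and 0.426 FPKM at 0 mM and 0.589 and 0.467 FPKM in the 20 mM controls. It rose with shRNA 2 (log2 fold change 1.95, limma adjusted p = 0.000441) and with shRNA 1 (1.36, limma adjusted p = 0.00193), and both calls held in 8 of 8 fits. SGK1, a kinase gene, rose with shRNA 2 to 2.77 and 2.85 FPKM, against 0.269 and 0.332 FPKM in the 20 mM controls (1.55, limma adjusted p = 0.00316).

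PER1, a clock gene, fell with shRNA 1 to 5.84 and 5.87 FPKM, against 16.7 and 15.6 FPKM in the 20 mM controls (log2 fold change −1.32, limma adjusted p = 0.00106). DUSP1, a phosphatase of p38, moved in opposite directions, to 13.0 ± 0.223 FPKM with shRNA 2 (0.49, limma adjusted p = 0.00764) and 5.85 ± 0.0255 FPKM with shRNA 1 (−0.55, limma adjusted p = 0.00529), against 9.03 ± 0.130 FPKM in the 20 mM controls (SD, n = 2 each). ERRFI1 rose with shRNA 2 (0.67, limma adjusted p = 0.00764), a call lost under quantile normalization, and TSC22D3, the glucocorticoid-induced leucine zipper gene, fell with shRNA 1 (−0.75, limma adjusted p = 0.0119). The list medians were 0.49 with shRNA 2, 0.04 with shRNA 1, 0.13 at 0 mM and 0.63 between the shRNAs, where 6 of 7 genes were called higher with shRNA 2 (13.0% of all genes). DUSP1 and ERRFI1 with shRNA 2 lost their calls without either 20 mM control, and TSC22D3 without any 1 of the 4 libraries compared.

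The genes whose pattern was most like that of a member were sought among 7116 protein-coding genes with a mean of at least 5 FPKM, by Pearson's r of log2(FPKM + 1) over the 8 libraries. The libraries fall into 4 groups, so r mainly reflects how the group means are spaced and is given with no p. For MT1E these were ZNF706 (0.99), MLPH (0.98), C16orf45 (0.98), PPP1R26 (0.97) and OPTN (0.97). For MT2A they included EDEM2 (0.97), ZNF395 (0.96), P4HA1 (0.95) and C8orf59 (0.95). ZNF706, the nearest to MT1E, averaged 15.1 FPKM with shRNA 2, 12.7 with shRNA 1, 12.1 at 0 mM and 10.4 in the 20 mM controls, a far narrower range than that of MT1E, whose mean with shRNA 2 was 6.11 times the 20 mM control.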

How the data were processed

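Total RNA of 8 HCT116 libraries was reverse transcribed with random hexamers, per the labels' protocols, which leave the strand type open. The tools, per the submitters' processing notes, were featureCounts 1.5.0-p3, HISAT2 2.0.5 and DESeq2 1.20.0; the sources used here do not give their roles, the strand setting or the genome build. Per gene and library the deposited values are FPKM, as computed by the authors; the 58735 genes match GENCODE 29 on GRCh38 in identifier, position and length. FPKM times gene length gave whole reads (tolerance 0.001) for 100% of values.

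Groups came from the labels. The main fit was 1 limma 3.58.1 model (R 4.3.3, eBayes with trend) of 4 group means, with 4 residual degrees of freedom, on log2(FPKM + 1) for the 16239 genes with at least 1 FPKM in at least 2 libraries; calls used Benjamini-Hochberg adjusted p under 0.05 over all of them. Fold changes on this scale understate changes of low genes. The fit was also run on simulated reads with planted changes, with the same dispersion for all genes and no effects of line or replicate. That run does not measure its error rate on these data. Alternatives were a pseudocount of 0.1, no filter, quantile and median-of-ratios scaling, a replicate block, limma voom on recovered reads and leaving out each library. Exact 95% Poisson intervals and the limit of 3 reads for a count of 0 cover counting error only.

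Members and lists were chosen with earlier results of these data known. Named were the members, their family, MAPKAPK2, up to 4 called genes per list and comparison with the smallest p, and the 5 genes most like MT1E and MT2A, of which 1 is not reported here.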

Additional observations from a re-analysis of the deposited data

Results flagged for a closer look

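Effects of the 2 MAPKAPK2 shRNAs on several listed genes differed from each other in the direct limma contrast of shRNA 2 against shRNA 1 (adjusted p under 0.05 over all genes). Groups of 2 libraries are too small for a test of single outlying libraries. The log2 fold change of shRNA 2 against shRNA 1 was 0.92 for SLC39A7, 0.74 for SLC39A8, −0.49 for SLC39A6 and −0.65 for SLC39A4 among zinc transporters. Among copper genes it was 0.96 for SOD1 and 0.72 for COMMD1, neither of which was called with either shRNA against control. The COMMD1 call was lost with a pseudocount of 0.1, without the filter and under quantile normalization. Among metal-inducible genes it was 0.88 for GCLC, −0.93 for HMOX1 and −0.41 for HSPA1B, the last called in 1 of 8 leave-one-out fits. Among glucocorticoid-inducible genes it was 1.04 for DUSP1, 1.29 for PER1, 1.21 for SGK1 and 0.63 for ERRFI1. The ERRFI1 call was lost under quantile normalization, and those of SLC39A4 and HSPA1B without the filter. Leaving out the first shRNA 1 library lost the calls of HMOX1 and ERRFI1, among others. MAPKAPK2 itself was lower with shRNA 2 than with shRNA 1 (0.982 and 0.800 against 2.77 and 2.54 FPKM); whether the differences follow the depth of the knockdown, the hairpins or the lines was not tested.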

How the results depend on the processing

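Of 336 member values under alternatives, 322 moved by no more than the spread of replicates, 14 moved by more and 0 called values changed sign. Most of them could not move by more. With groups of 2, leaving out a library shifts a fold change by at most that spread, and the replicate block and the missing filter leave it unchanged. The 14 thus come from the other alternatives alone, and the 322 are no measure of stability. Of 504 values of named list genes, 89 lost their call and 0 changed sign. The number of genes called at 0 mM was 0, against 6 without the filter, 28 with limma voom and 0 to 1 with a library left out (1 without the second shRNA 2 library). It was 3055 with shRNA 2 (1015 to 3026 with a library left out), 3222 with shRNA 1 (942 to 4054) and 3602 between the shRNAs (1335 to 3473). Of the 17 zinc genes, 1 was called with shRNA 2 (2 with quantile scaling, 4 with voom, 0 to 2 with a library left out), 4 with shRNA 1 (2 without the filter, 1 to 4) and 5 between the shRNAs (3 without the filter, 8 with voom, 1 to 4). The cause of these changes was not tested.

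Replicate differences correlated at −0.03 to 0.18 across the 6 pairs of groups, so replicate numbers showed no pairing common to all groups. The highest value, 0.18, was between the 0 mM controls and shRNA 2, whose second libraries stood apart on the third principal component. Whether the libraries of these groups share a replicate effect was not tested. With the replicate block, 0 genes were called at 0 mM, 3332 with shRNA 2, 3470 with shRNA 1 and 3806 between the shRNAs, and of the zinc genes 0 were called at 0 mM, 1 with shRNA 2, 4 with shRNA 1 and 5 between the shRNAs. It changed no member call and lost ATP7B. Without the filter, MT2A and MT1F lost their calls between the shRNAs, and quantile scaling added MT2A with shRNA 1. With 2 libraries a group and 4 residual degrees of freedom, small changes could not be seen, and low genes such as MT1F are limited by their reads.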
